A study of Mus musculus with 3 samples.

Results

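Phagocytes bind antibody-coated particles, modified lipoproteins and dying cells through several families of surface receptors, and 10 genes for such receptors were read out of the 54532 genes of the deposited table by their symbols. They were 4 Fc gamma receptor genes (Fcgr1, Fcgr2b, Fcgr3 and Fcgr4), the scavenger receptor genes Msr1, Cd36 and Marco, the mannose receptor gene Mrc1, and the receptor kinase genes Mertk and Axl. In RAW264.7 cells given RANKL, Msr1, Cd36 and Fcgr4 were the members that averaged at least 1 FPKM, a read level corrected for gene length and library depth, and the other 7 were lower, with 0 to 29 reads in any library. With TSH as well, Cd36 was lower in both libraries, by 0.23 and 0.21 on the scale of log2(FPKM + 1), beyond counting error. This means that the 95% interval of the ratio from its reads left out 1. By that interval 12.2% and 13.2% of the genes that averaged at least 1 FPKM were lower in the same comparisons. Neither change of Cd36 reached 1.2-fold on the FPKM + 1 scale, and both share the library of RANKL alone. Msr1 differed by less than counting error between any pair of libraries. Fcgr4 was higher with TSH in both libraries, by 0.35 and 0.28 on the same scale, but not beyond counting error.

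Messenger RNA was profiled in RAW264.7, a mouse macrophage line that the cytokine RANKL turns into osteoclasts, which resorb bone. All cells had the genotype WT and received RANKL for 3 days, and 10 mU/mL of TSH (thyroid stimulating hormone) was then added for 2 h or for 24 h, while the sample of RANKL alone is labelled 0 h. There were 3 libraries, 1 per condition, all of this cell line, so a longer time in culture and TSH cannot be told apart. The table names the TSH libraries T1 and T2 and does not tie these names to the hours, so they are given by those names, are not replicates and were never averaged.

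The reads recovered from the table summed to 16809034 in T1, 17390744 in T2 and 16156926 in RANKL alone. Of 10 osteoclast marker genes 9 had a mean of at least 1 FPKM, and their summed level was 2572 FPKM in T1, 2496 FPKM in T2 and 3097 FPKM in RANKL alone. All 10 macrophage marker genes had such a mean, with sums of 1584, 1574 and 1627 FPKM in the same order. None of 6 B lymphocyte, 7 T lymphocyte and NK, 8 neutrophil, 8 fibroblast and osteoblast, 6 endothelial and 6 alternatively activated macrophage markers reached it, and 1 of 7 dendritic cell markers did, the integrin gene Itgax. In bulk RNA, fewer cells of a type and less RNA per cell cannot be told apart.

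Fc gamma receptors bind the constant part of immunoglobulin G. The activating ones, encoded in mice by Fcgr1, Fcgr3 and Fcgr4, signal through the immunoreceptor tyrosine-based activation motif of the shared Fc receptor gamma chain, the product of Fcer1g, whereas the receptor encoded by Fcgr2b carries an inhibitory motif of its own. In osteoclast precursors the gamma chain and the related adaptor encoded by Tyrobp also pass on costimulatory signals that act beside RANKL. Scavenger receptors take up modified lipoproteins and microbes, and the mannose receptor binds sugars. The kinases encoded by Mertk and Axl bind dying cells through bridging proteins, Gas6 for both and protein S for Mertk.

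Fcgr2b, Fcgr4 and Fcgr3 lie together on chromosome 1 (GRCm38, from chr1:170958617-170976547 for Fcgr2b to chr1:171051174-171064935 for Fcgr3), with Fcgr4 between them at chr1:171018920-171029761. Fcgr1 lies on chromosome 3, at chr3:96282909-96293969. The extracellular coding parts of Fcgr2b and Fcgr3 are alike enough to affect read assignment: a transcript of each aligned over 512 bases at 96.3% identity, and 129 coding bases were identical without a break. The window of 249 bases around that stretch is shown for both genes because a short read from the identical part cannot be given to either, with the 6 differing positions in capitals (GENCODE M21 transcripts, 5′ to 3′).
Fcgr2b: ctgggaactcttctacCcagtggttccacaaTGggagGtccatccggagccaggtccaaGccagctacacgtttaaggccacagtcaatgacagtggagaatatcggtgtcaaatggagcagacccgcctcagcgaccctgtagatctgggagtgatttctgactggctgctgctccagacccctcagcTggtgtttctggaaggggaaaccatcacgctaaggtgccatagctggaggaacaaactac
Fcgr3: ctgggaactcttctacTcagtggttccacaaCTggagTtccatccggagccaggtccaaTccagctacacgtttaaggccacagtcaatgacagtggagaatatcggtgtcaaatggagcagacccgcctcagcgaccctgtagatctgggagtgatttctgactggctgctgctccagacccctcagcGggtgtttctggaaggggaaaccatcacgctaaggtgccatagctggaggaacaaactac
Of the words of 50 bases in their transcripts, 4.26% of those of Fcgr2b and 9.58% of those of Fcgr3 occurred in another gene, against 0% for each of the other 8 members. Counts of this pair are therefore uncertain, and how the authors treated reads that match several places is not stated in the sources.

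The 250 bases before a RefSeq start of each Fc gamma receptor gene are shown because Fcgr4 stood far above the others, which had few reads. The cells carried 245, 238 and 261 FPKM of Spi1 (T1, T2 and RANKL alone), the gene of the macrophage and B cell factor PU.1. A part of PU.1 in these levels was not tested. Capitals mark GAGGAA, a core of the sites that PU.1 binds, or its complement TTCCTC (RefSeq, GRCm38.p6, strand of the gene, 5′ to 3′).
Fcgr4 (chr1:171018676-171018925, plus strand): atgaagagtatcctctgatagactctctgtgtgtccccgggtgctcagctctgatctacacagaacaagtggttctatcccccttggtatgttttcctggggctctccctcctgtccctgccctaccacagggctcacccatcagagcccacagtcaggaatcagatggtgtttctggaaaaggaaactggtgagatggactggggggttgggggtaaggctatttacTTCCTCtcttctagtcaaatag
Fcgr2b (chr1:170976072-170976321, minus strand): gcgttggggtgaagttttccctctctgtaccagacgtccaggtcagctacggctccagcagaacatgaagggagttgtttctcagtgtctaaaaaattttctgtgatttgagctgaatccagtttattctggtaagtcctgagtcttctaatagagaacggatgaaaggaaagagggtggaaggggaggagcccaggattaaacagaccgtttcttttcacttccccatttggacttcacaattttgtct
Fcgr1 (chr3:96293970-96294219, minus strand): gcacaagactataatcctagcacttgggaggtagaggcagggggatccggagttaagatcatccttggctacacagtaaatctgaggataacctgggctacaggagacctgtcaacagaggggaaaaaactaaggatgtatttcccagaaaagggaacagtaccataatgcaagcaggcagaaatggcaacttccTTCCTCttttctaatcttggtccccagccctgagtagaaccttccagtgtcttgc
Fcgr3 (chr1:171059404-171059653, minus strand): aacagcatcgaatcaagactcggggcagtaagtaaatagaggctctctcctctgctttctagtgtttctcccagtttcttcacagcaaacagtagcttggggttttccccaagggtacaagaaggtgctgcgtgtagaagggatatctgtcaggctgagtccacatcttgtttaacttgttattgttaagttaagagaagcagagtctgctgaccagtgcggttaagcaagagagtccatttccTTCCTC
These letters occurred in the windows of Fcgr4, Fcgr1 and Fcgr3, at 22, 55 and 6 bases before the start, and not in that of Fcgr2b. RefSeq has another start for Fcgr3, with the window chr1:171059395-171059644, and the same match lies 15 bases before it. They occurred on either strand in 23.3% of 32851 windows of this length in the table. A match is a description of the sequence and not a site. Of the other members, the windows of Marco, Mrc1 and Axl held it, those of Cd36 and Mertk did not, and Msr1 had no entry in the table. The motif was chosen after the levels were known. The windows of Fcgr2b and Fcgr3 lie inside the gene spans given above, which begin further upstream than these RefSeq starts.

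Fcgr4 encodes an activating receptor of intermediate affinity, found on macrophages and neutrophils. It stood at 3.75 FPKM in T1 (79 reads), 3.5 FPKM in T2 (77 reads) and 2.72 FPKM in RANKL alone (55 reads). It was the highest Fc gamma receptor gene in every library, with 88.6% of their summed FPKM in T1, 84.9% in T2 and 81.8% in RANKL alone. Both TSH libraries lay above RANKL alone, with a ratio of 1.38 in T1 (95% counting interval 0.967 to 1.99) and 1.29 in T2 (0.9 to 1.86). Neither interval leaves out 1.

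Fcgr2b, the inhibitory receptor gene, stood at 0.299 FPKM in T1, 0.227 FPKM in T2 and 0.150 FPKM in RANKL alone, from 29, 23 and 14 reads. Both TSH libraries were higher than RANKL alone, by a ratio of 1.99 in T1 (1.02 to 4.08), just beyond counting error, and of 1.51 in T2 (0.746 to 3.18), which was not. On the log2(FPKM + 1) scale these were changes of 0.18 and 0.09. With the FPKM of Fcgr3 added, in view of the shared sequence, they became 0.07 and -0.0064. This sum is not a pooling of reads. Each read of the shorter Fcgr3 (1736 bases) weighs more in it than a read of Fcgr2b (5790 bases), so it does not settle how shared reads were assigned. Per length, Fcgr4 exceeded Fcgr2b 12.6-fold in T1 (8.11 to 19.9), 15.4-fold in T2 (9.58 to 25.8) and 18.1-fold in RANKL alone (9.94 to 35.3), and these intervals overlap.

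Fcgr1 encodes the high-affinity receptor, CD64. It had 2 reads in T1, 12 in T2 and 10 in RANKL alone, or 0.0461, 0.265 and 0.239 FPKM. T1 was thus the low library, while T2 and RANKL alone were close. The ratio was 0.192 in T1 against RANKL alone (0.0205 to 0.903), 1.10 in T2 against RANKL alone (0.437 to 2.85) and 5.74 in T2 against T1 (1.28 to 52.8). Its T1 value rests on 2 reads. Of genes under 1 FPKM with at least 6 reads in the libraries compared, 4.16% were lower and 4% higher beyond counting error in T1 against RANKL alone, and 5.4% were higher in T2 against T1. Of the 4 members in that class (Fcgr1, Fcgr2b, Fcgr3 and Axl), 1 was lower and 1 higher in T1 against RANKL alone, and 1 was higher in T2 against T1.

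Fcgr3, the gene of a low-affinity activating receptor, had 4 reads in T1, 4 in T2 and 6 in RANKL alone, or 0.137, 0.131 and 0.214 FPKM. The ratio to RANKL alone was 0.641 in T1 (0.133 to 2.70) and 0.614 in T2 (0.127 to 2.59). A change of Fcgr3 was not detectable at this depth. Fcer1g, the gene of the chain that the activating receptors need, stood at 106 FPKM in T1, 111 FPKM in T2 and 106 FPKM in RANKL alone. Per length that was 28.3-fold (22.6 to 36.0), 31.8-fold (25.3 to 40.5) and 39.2-fold (29.9 to 52.2) the level of Fcgr4, and these intervals overlap.

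**Figure D1:**
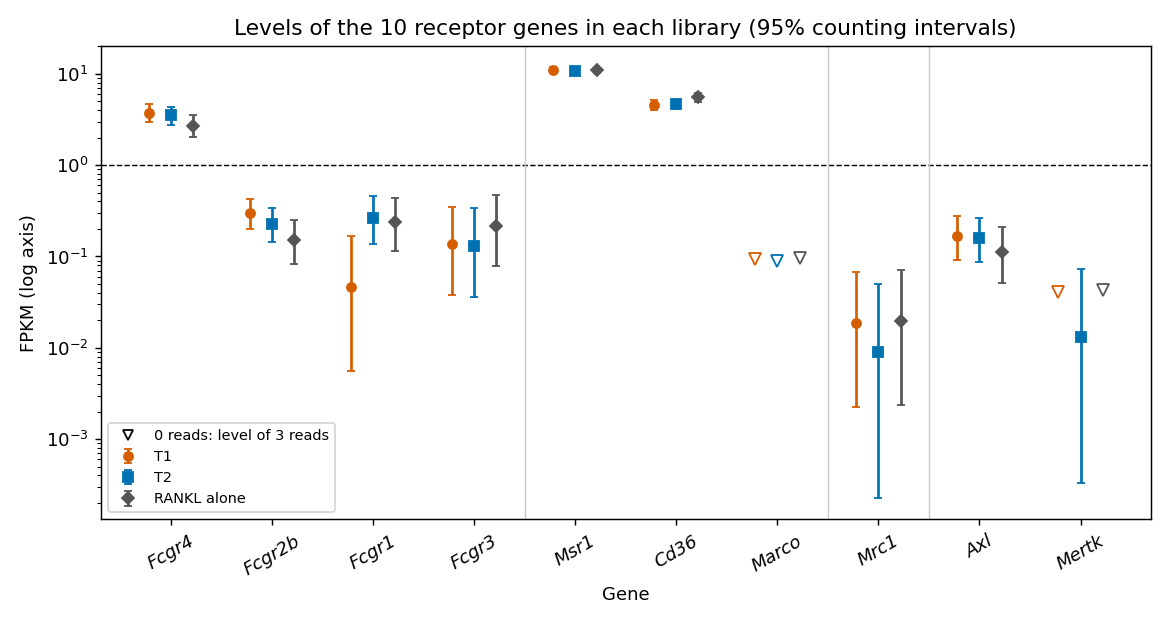
FPKM of the 10 receptor genes on a log axis in T1 (circles), T2 (squares) and RANKL alone (diamonds), with 95% counting intervals from the reads. Open triangles mark libraries with 0 reads at the level of 3 reads, the dashed line is 1 FPKM, and grey lines separate Fc gamma receptors, scavenger receptors, the mannose receptor and the receptor kinases. Msr1, Cd36 and Fcgr4 lie above 1 FPKM in all 3 libraries and the other 7 genes lie below it.

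Msr1 encodes the class A scavenger receptor of macrophages, which takes up acetylated lipoproteins and bacteria. It was the highest member in every library, at 11.1 FPKM in T1 (1180 reads), 10.7 FPKM in T2 (1187 reads) and 10.9 FPKM in RANKL alone (1115 reads). The 3 libraries were nearly level. The ratio to RANKL alone was 1.02 in T1 (0.937 to 1.11) and 0.980 in T2 (0.902 to 1.06), so the counting error alone leaves room for differences of the size of those bounds. Msr1 held 55.2% of the summed FPKM of the 10 members in T1, 54.4% in T2 and 54.7% in RANKL alone, and the sums themselves were 20.1, 19.6 and 19.9 FPKM.

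Cd36 encodes a class B scavenger receptor that binds oxidised lipoproteins, thrombospondin and long-chain fatty acids. It stood at 4.58 FPKM in T1 (276 reads), 4.66 FPKM in T2 (293 reads) and 5.56 FPKM in RANKL alone (322 reads). Both TSH libraries were lower than RANKL alone and lay close to each other. The ratio was 0.824 in T1 (0.699 to 0.971) and 0.837 in T2 (0.712 to 0.984), both beyond counting error, and 1.02 in T2 against T1 (0.859 to 1.2). Both comparisons share the library of RANKL alone, so a deviation of that library would appear in both. Of the 9 osteoclast markers that averaged 1 FPKM or more, 6 were lower and 1 higher in T1 against RANKL alone by the interval. In T2 all 9 were lower. By the size rule given below, 2 were counted lower in T1 and 3 in T2. Over all genes the interval left 12.2% lower in T1 and 13.2% in T2, and the size rule 2.81% and 2.67%. Well covered genes pass the interval at small changes. Of the 10 macrophage markers, 5 were lower and 3 higher by the interval in each comparison. By the size rule 2 of those 10 were higher in T1 (Adgre1 and Itgam) and 1 in T2 (Adgre1), and 0 were lower. Itgam passed the filter of 1 FPKM with the help of its high T1 value. Over all genes the interval left 10.8% higher in T1 and 10.2% in T2, and the size rule 2.61% and 2.29%. Ctsk, encoding the protease cathepsin K, stood at 983 FPKM in T1, 980 FPKM in T2 and 1337 FPKM in RANKL alone. Nfatc1, the gene of a master regulator of osteoclasts and the osteoclast marker that was higher in T1, stood at 173 FPKM in T1, 159 FPKM in T2 and 165 FPKM in RANKL alone. The part of such shifts in the level of Cd36 was not tested.

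Per length, Msr1 exceeded Cd36 2.42-fold in T1 (2.12 to 2.77), 2.29-fold in T2 (2.02 to 2.61) and 1.96-fold in RANKL alone (1.73 to 2.23). Marco, the gene of a scavenger receptor for bacteria and inhaled particles on subsets of macrophages, had 0 reads in every library. A count of 0 allows up to 0.0929 FPKM in T1, 0.0889 FPKM in T2 and 0.0966 FPKM in RANKL alone, the level of 3 reads in a gene of its length, counting error only. Marco transcripts were thus not detectable at this depth.

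Mrc1 encodes the mannose receptor CD206, a widely used marker of alternatively activated macrophages. It had 2 reads in T1, 1 in T2 and 2 in RANKL alone, or 0.0187, 0.00896 and 0.0195 FPKM, at or under the floor of 3 reads, so no ratio is given. The 6 other markers of alternative activation summed to 0.231 FPKM in T1, 0.470 FPKM in T2 and 0.497 FPKM in RANKL alone. Most of that sum was Pparg, which encodes a lipid-sensing nuclear receptor, with 9 reads in T1, 14 in T2 and 21 in RANKL alone. Retnla and Chil3 had 0 reads in every library, Mgl2 and Clec10a had at most 1, and Arg1, the arginase gene, had 0 reads in T1, 7 in T2 and 2 in RANKL alone.

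Axl encodes one of the TAM receptor kinases, which bind dying cells and dampen inflammatory signalling. It had 14 reads in T1, 14 in T2 and 9 in RANKL alone, or 0.166, 0.159 and 0.111 FPKM. Both TSH libraries were above RANKL alone, by a ratio of 1.5 in T1 (0.603 to 3.92) and 1.43 in T2 (0.577 to 3.75), not beyond counting error. Mertk, encoding the TAM kinase of macrophages that clear dying cells, had 0 reads in T1, 1 in T2 and 0 in RANKL alone. The counts of 0 allow up to 0.0413 FPKM in T1 and 0.0429 FPKM in RANKL alone, counting error only.

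Tyro3, the remaining kinase gene of that family, had 9 reads in T1, 7 in T2 and 4 in RANKL alone. Their ligand gene Gas6 was far above the receptors, at 5.03 FPKM in T1, 5.73 FPKM in T2 and 6.94 FPKM in RANKL alone. It was lower in both TSH libraries, by a ratio of 0.726 in T1 (0.605 to 0.869) and 0.827 in T2 (0.696 to 0.982). Per length, Gas6 exceeded Axl 30.3-fold in T1 (17.7 to 56.4), 36.1-fold in T2 (21.1 to 67.0) and 62.6-fold in RANKL alone (32.5 to 138), and these intervals overlap. Pros1, the gene of protein S, stood at 0.277 FPKM in T1, 0.140 FPKM in T2 and 0.273 FPKM in RANKL alone.

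The order of the members by FPKM began with Msr1, Cd36 and Fcgr4 in all 3 libraries. In RANKL alone each of these steps was beyond counting error, with Cd36 2.05-fold above Fcgr4 (1.53 to 2.78). In T2 the step from Cd36 to Fcgr4 was 1.33-fold (1.03 to 1.73), and in T1 it was 1.22-fold (0.949 to 1.59), where the neighbours did not differ beyond counting error. The next step down, beyond counting error in every library, was wide: from Fcgr4 to Fcgr2b in T1 (12.6-fold), to Fcgr1 in T2 (13.2-fold, 7.15 to 26.7) and to Fcgr1 in RANKL alone (11.3-fold, 5.72 to 24.9). Below it Fcgr1, Fcgr2b, Fcgr3 and Axl changed places between libraries, and neighbours among them did not differ beyond counting error in any library. Axl exceeded Mrc1 in RANKL alone by 5.70-fold (1.18 to 54.2), which rests on 2 reads of Mrc1.

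Among the 22046 protein-coding genes, Msr1 lay above 80.6% in T1, 80.0% in T2 and 80.4% in RANKL alone. Cd36 lay above 68.5%, 68.6% and 70.8%, and Fcgr4 above 66.2%, 65.5% and 63.1%, in the same order of libraries. Since 43.1% of protein-coding genes had a mean of at least 1 FPKM, 3 of 10 members with such a mean is a smaller share than that of all such genes, and with 10 members no weight is placed on it.

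**Figure D2:**
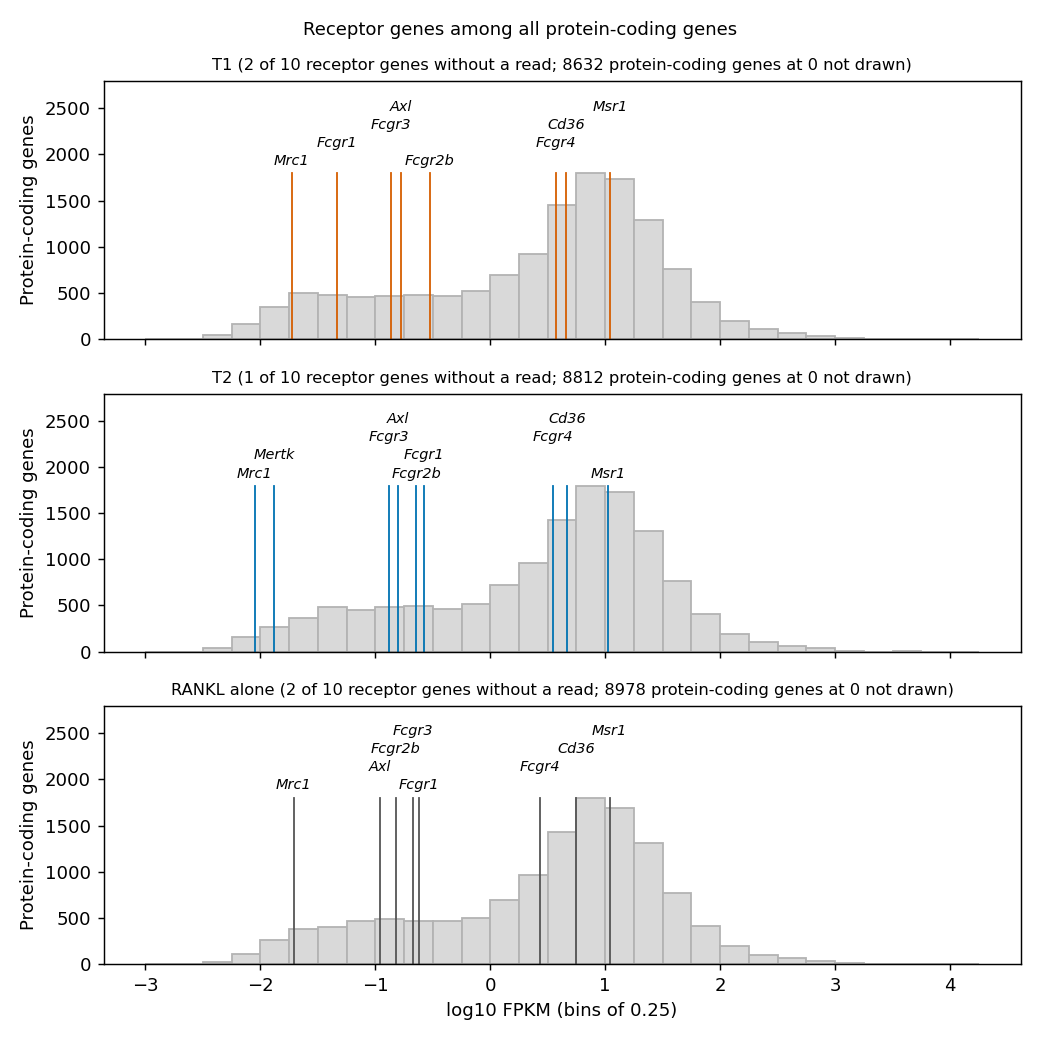
Number of protein-coding genes in bins of log10 FPKM (grey bars) in T1, T2 and RANKL alone, with vertical lines at the levels of the receptor genes that had a read. Msr1, Cd36 and Fcgr4 lie within the main peak of expressed genes in all 3 libraries, and Fcgr1, Fcgr2b, Fcgr3, Axl and Mrc1 lie in the low shoulder.

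For T1 against RANKL alone, a change was counted where it reached 1.2-fold on the FPKM + 1 scale and the counting interval of the ratio left out 1. None of the 3 members that averaged 1 FPKM or more was counted, against 2.61% of 11069 genes counted higher and 2.81% counted lower, and none reached 2-fold, against 1.04%. By the interval alone 1 of 3 was lower, Cd36, and 0 were higher, against 12.2% lower and 10.8% higher of all genes. The median change of the 3 members was 0.02, beside -0.00136 over all genes, of which the middle 90% lay between -0.27 and 0.27. Fcgr4, at 0.35, lay above that range and Cd36, at -0.23, within it, but the interval of Fcgr4 held 1.

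For T2 against RANKL alone, again 0 of 3 members were counted, against 2.29% of genes higher and 2.67% lower, and 0 reached 2-fold, against 0.768%. By the interval alone Cd36 was lower and none was higher, against 13.2% lower and 10.2% higher of all genes. The changes were 0.28 for Fcgr4, -0.03 for Msr1 and -0.21 for Cd36, with a median of -0.03 beside -0.00182 over all genes. The middle 90% of all genes lay between -0.26 and 0.26. With 3 members, 1 of 3 is not read as a result about them.

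For T2 against T1 the 3 members changed by -0.08 (Fcgr4), -0.05 (Msr1) and 0.02 (Cd36), and 0 of 3 passed any rule. Over all genes 1.7% were counted higher and 1.95% lower, 0.831% reached 2-fold, and 7.93% were higher and 10.1% lower by the interval alone. The median of the members was -0.05, beside -0.00267 over all genes. The middle 90% of all genes lay between -0.24 and 0.23. Fcgr2b and Axl had ratios of 0.759 (0.419 to 1.36) and 0.957 (0.423 to 2.17), and Fcgr3 of 0.957 (0.178 to 5.14). Of the 7 members with ratios, Fcgr1 was alone beyond counting error here.

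**Figure D3:**
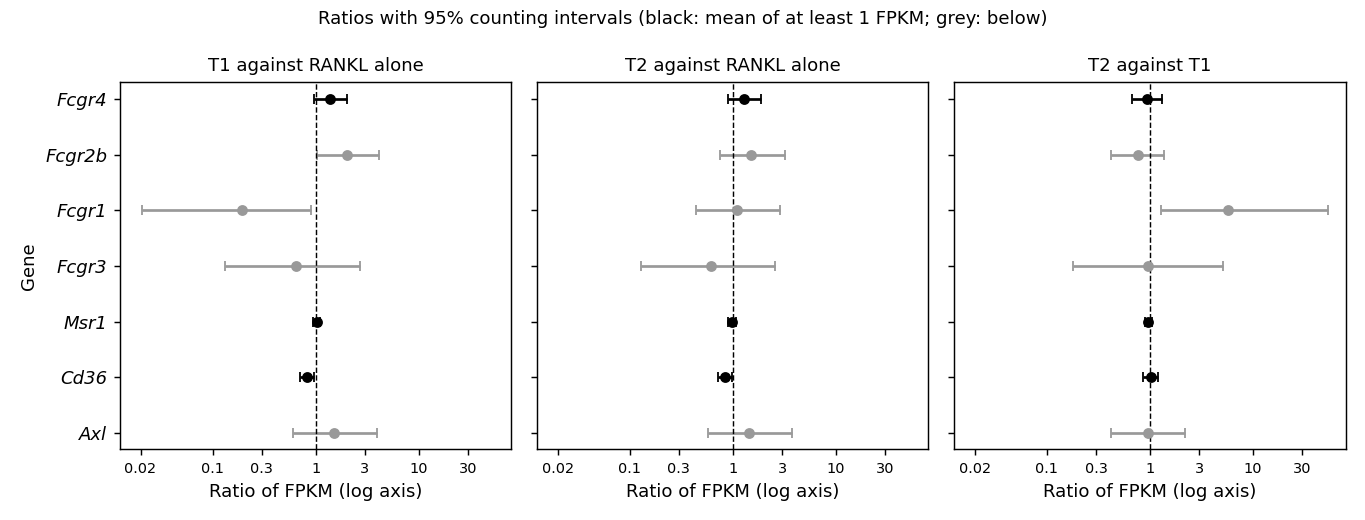
Ratios of FPKM on a log axis with 95% counting intervals for the 7 receptor genes with more than 3 reads in any library, for T1 against RANKL alone, T2 against RANKL alone and T2 against T1. Black marks genes that averaged 1 FPKM or more and grey marks lower genes. Msr1 lies close to 1 in every panel, Cd36 lies below 1 in the panels against RANKL alone, and the intervals of the grey genes are wide.

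Of the members with at least 100 reads summed over the 3 libraries, Fcgr4 had the largest change against RANKL alone. The genes whose pair of changes in T1 and T2 was nearest to that of Fcgr4, by Euclidean distance over 10231 genes, were Cdpf1 (distance 0.00584), Eid2b (0.0148) and Top1mt (0.0160). Cdpf1 changed by 0.35 in T1 and 0.28 in T2, Eid2b by 0.37 and 0.29, and Top1mt by 0.37 and 0.27. This likeness rests on 3 libraries that share RANKL alone, and it describes no more than 2 numbers per gene. Neither change of Fcgr4 was beyond counting error, so which genes lie nearest to it is itself uncertain.

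The lists of related genes that follow stand beside the shares and medians over all genes given above, and well covered genes pass the interval at small changes. All 20 genes listed for signalling below Fc gamma receptors had a mean of at least 1 FPKM. In T1 against RANKL alone 1 of 20 was counted lower by the size rule, and 6 were lower and 2 higher by the interval alone, with a median of -0.06. In T2 none was counted, and 8 were lower and 1 higher by the interval alone, with a median of -0.09. The counted gene was Cblb, for a ubiquitin ligase that restrains receptor signalling, at 1.91 FPKM in T1, 2.21 FPKM in T2 and 2.65 FPKM in RANKL alone, with ratios of 0.721 in T1 (0.624 to 0.832) and 0.836 in T2 (0.729 to 0.958). Src, the kinase gene that osteoclasts need to resorb bone, stood at 65.1 FPKM in T1, 62.8 FPKM in T2 and 75.2 FPKM in RANKL alone. Its ratios were 0.867 in T1 (0.833 to 0.901) and 0.835 in T2 (0.803 to 0.869). Vav1, for a signalling protein of blood cells, had ratios of 0.868 in T1 (0.813 to 0.927) and 0.884 in T2 (0.829 to 0.943).

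Of the list named other Fc and immunoglobulin-binding receptors, 14 genes were found and 5 had a mean of at least 1 FPKM. These were Fcgrt, Fcrl1, Lilrb4a, Sirpa and Cd47, not all of which bind immunoglobulin. Of the 5, 0 were counted in T1 or in T2 against RANKL alone. Their medians were 0.09 in T1 and 0.01 in T2. By the interval alone 3 were higher and 1 lower in T1, and 1 higher and 1 lower in T2. Lilrb4a, for an inhibitory receptor of myeloid cells, was higher in both TSH libraries, at 8.45 FPKM in T1, 8.55 FPKM in T2 and 7.53 FPKM in RANKL alone. Fcrl1, an Fc receptor-like gene known from B cells, stood at 25.6 FPKM in T1, 22.8 FPKM in T2 and 22.1 FPKM in RANKL alone, a ratio of 1.16 in T1 (1.08 to 1.25) and 1.03 in T2 (0.957 to 1.11). The B lymphocyte markers summed to 0.5 FPKM in T1, 0.567 FPKM in T2 and 0.197 FPKM in RANKL alone. Fcgrt, for the neonatal Fc receptor that recycles immunoglobulin G, had ratios of 0.849 in T1 (0.749 to 0.963) and 0.967 in T2 (0.857 to 1.09).

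Of 19 other scavenger receptor genes 10 had a mean of at least 1 FPKM. In T1 2 of these 10 were counted lower and in T2 1 was, with 6 and 5 lower and 1 and 1 higher by the interval alone, and medians of -0.09 and -0.13. Cxcl16, which encodes both a chemokine and a receptor for oxidised lipids, was counted lower in both TSH libraries, at 2.84 FPKM in T1, 2.95 FPKM in T2 and 3.84 FPKM in RANKL alone. Olr1, for a receptor of oxidised lipoproteins, stood at 0.885 FPKM in T1, 1.25 FPKM in T2 and 1.48 FPKM in RANKL alone, a ratio of 0.600 in T1 (0.417 to 0.855) and 0.845 in T2 (0.613 to 1.16). Lrp1, for a large endocytic receptor, had ratios of 0.945 in T1 (0.928 to 0.962) and 0.864 in T2 (0.848 to 0.880). Cd163, the haemoglobin scavenger receptor gene, had 0 reads in T1, 1 in T2 and 0 in RANKL alone.

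The C-type lectin list held 15 genes, 7 of them with a mean of at least 1 FPKM. None was counted in T1 or T2, 1 was higher and 0 lower by the interval alone in each, and the medians were 0.06 and 0.09. Clec4e, for the receptor Mincle that binds mycobacterial and fungal glycolipids, stood at 3.38 FPKM in T1, 3.32 FPKM in T2 and 2.78 FPKM in RANKL alone, with ratios of 1.21 in T1 (1.01 to 1.45) and 1.19 in T2 (0.998 to 1.43). Its relative Clec4d had ratios of 1.05 in T1 (0.930 to 1.18) and 1.14 in T2 (1.02 to 1.28). Clec2d, for a ligand of an inhibitory receptor of NK cells, stood at 5.21 FPKM in T1, 4.70 FPKM in T2 and 6.03 FPKM in RANKL alone, not beyond counting error in either comparison.

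Of 22 genes for bridging proteins and receptors of apoptotic cells, 12 had a mean of at least 1 FPKM. By the interval alone 8 of 12 were lower and 1 higher in T1, and 8 were lower and 0 higher in T2, and the medians were -0.12 and -0.16. By the size rule 1 of 12 was counted lower in each, Gas6 in T1 and Itgb3 in T2. Itgb3, a subunit of the vitronectin receptor of osteoclasts and also one of the osteoclast markers, stood at 11.3 FPKM in T1, 11.0 FPKM in T2 and 13.7 FPKM in RANKL alone. Anxa1, for a phospholipid-binding protein, had ratios of 0.933 in T1 (0.903 to 0.964) and 0.852 in T2 (0.824 to 0.880). C1qa, C1qb, C1qc and Timd4 had 0 reads in every library.

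Of 8 complement receptor genes 5 had a mean of at least 1 FPKM, with medians of -0.10 in T1 and -0.09 in T2. Itgam, the alpha subunit of complement receptor CR3, was counted higher in T1, at 1.59 FPKM in T1, 0.931 FPKM in T2 and 1.05 FPKM in RANKL alone. Its ratio was 1.52 in T1 (1.15 to 2.01) and 0.888 in T2 (0.647 to 1.22), each against RANKL alone. Its T2 level was under 1 FPKM and that of RANKL alone just above, so Itgam passed the filter with the help of T1. Its counts in comparisons with T1 therefore rest partly on the value that brought it past the filter. By the interval alone 1 gene was higher and 2 lower in T1, Itgax among the lower at a ratio of 0.726 (0.533 to 0.986), and 0 were higher and 1 lower in T2. In T2 against T1, Itgam was counted lower, with a ratio of 0.586 (0.439 to 0.777), and C3ar1, for the receptor of the anaphylatoxin C3a, higher, with a ratio of 1.57 (1.17 to 2.11).

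Of 25 engulfment machinery genes 24 had a mean of at least 1 FPKM, and none was counted in T1 or T2 against RANKL alone, with medians of -0.01 and -0.02. By the interval alone 4 were higher and 6 lower in T1, and 3 higher and 5 lower in T2. Dock1, for an activator of Rac in the uptake of dying cells, stood at 3.46 FPKM in T1, 3.52 FPKM in T2 and 2.98 FPKM in RANKL alone, with ratios of 1.16 in T1 (1.02 to 1.32) and 1.18 in T2 (1.04 to 1.34). Ptk2, for focal adhesion kinase, had ratios of 1.08 in T1 (1.01 to 1.15) and 1.11 in T2 (1.04 to 1.19). Myo10, for a myosin that acts in phagocytic cups and filopodia, had ratios of 0.948 in T1 (0.909 to 0.990) and 0.874 in T2 (0.837 to 0.912).

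**Figure D4:**
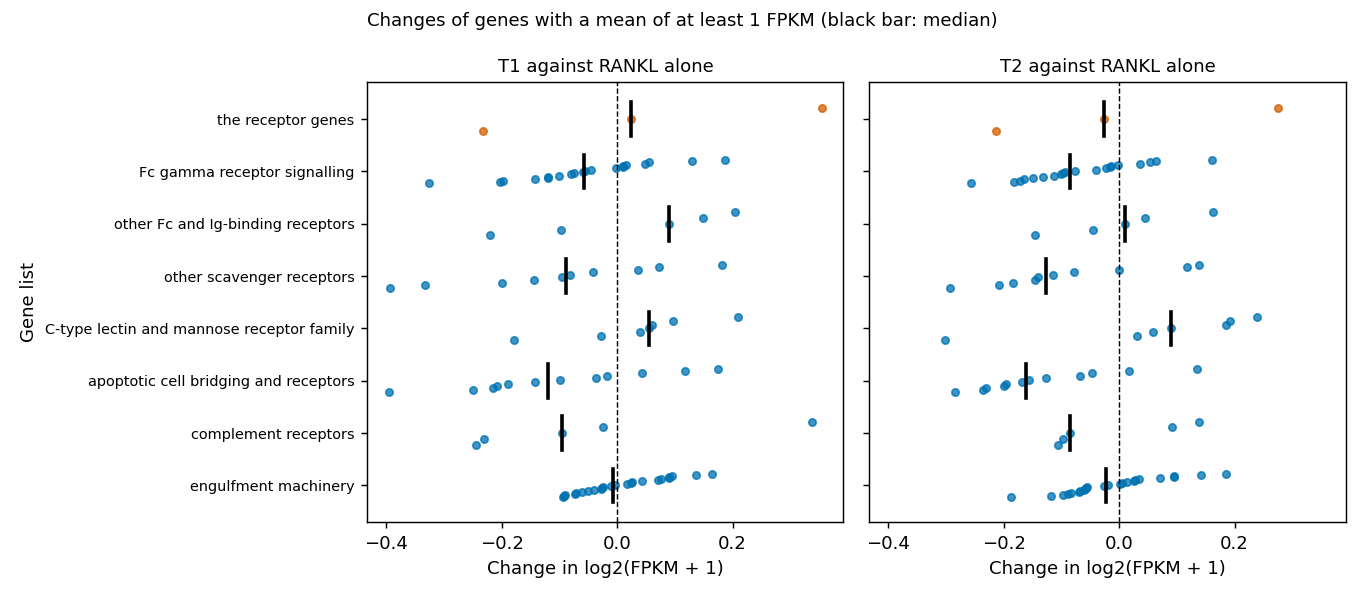
Change in log2(FPKM + 1) of each gene that averaged 1 FPKM or more, for the 3 receptor genes past that filter (orange) and 7 lists of related genes (blue), in T1 and in T2, each against RANKL alone. Black bars are medians. The medians of the lists lie between -0.16 and 0.09, and Fcgr4 is the receptor gene farthest to the right in both panels.

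No difference above has a replicate check, since each condition has 1 library, and no p-value is given. The intervals cover counting error only, and they compare these libraries and not the conditions. Reads without molecular identifiers can be PCR copies, so the intervals can be too narrow even for counting error.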

How the data were processed

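RNA levels were measured in 3 libraries, made with a SMARTer kit per the labels' protocols. Builds GRCm38 and mm10 are named in the submitters' processing notes. The sources used here name no aligner, counter, strand setting or annotation release. The authors deposited FPKM and, beside it, the gene length in bases. There were 0 unused per-sample columns. Multiplied by gene length, 100% of FPKM values came to whole numbers of a library's smallest unit within 0.01, which gave the reads per gene. Rescaling by median-of-ratios size factors multiplied every library by the same factor, so the deposited FPKM were on that scale already, and totals of the reads were added as another scaling.

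No test was possible on 1 library per condition. Changes were log2(FPKM + 1), which understates low genes, for the 11069 genes that averaged 1 FPKM or more. A gene was counted where the change reached 1.2-fold and the exact conditional (Clopper-Pearson) 95% interval of the read ratio left out 1. At 1 kb of length, 3 reads correspond to 0.179 FPKM in T1, 0.171 FPKM in T2 and 0.186 FPKM in RANKL alone.

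The members and lists were chosen with earlier results of these data known. Named genes were the members, up to 3 genes per list past that filter with at least 100 reads over the 3 libraries and the largest change against RANKL alone, markers by level, and 3 genes nearest to the member with the largest change. Other genes named, the promoter motif, the sum of Fcgr2b and Fcgr3, the scaling to total reads and the background of low genes were chosen after values were seen. Copies were sought with BLAST+ 2.17.0 (95% identity over 100 bases and 50% of the shorter transcript) in GENCODE M21, which held 99.8% of the identifiers and the same coordinates for all 10 members. Genes overlapping members had 0 or 1 read. The scripts (Python 3.11.15, numpy 2.4.6, pandas 2.3.3, scipy 1.17.1, matplotlib 3.10.9, biopython 1.88) were tested on simulated data. Alternatives were pseudocounts of 0.1 and 5, no filter, a filter at 5 FPKM, the other scalings, a fold of 1.5 and means.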

Additional observations from a re-analysis of the deposited data

Results flagged for a closer look

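The members, the genes named by rule and the markers of osteoclasts, macrophages and alternatively activated macrophages were screened for genes whose T1 and T2 values lay on opposite sides of RANKL alone and whose counting interval of T2 against T1 left out 1, with no minimum size. Other genes of the lists that met this are not given here. Fcgr1 changed by 0.27 in T2 against T1 on the log2(FPKM + 1) scale, with 12 reads in T2 and 2 in T1. Itgam changed by -0.42, C3ar1 by 0.37 and Nfatc1 by -0.12 in T2 against T1. Arg1 changed by 0.24, with 7 reads in T2 and 0 in T1. With 1 library each, these differences were not tested.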

How the results depend on the processing

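Of 159 alternative values for the members, 157 kept within counting error or the same count, and none reversed a change that lay beyond counting error. This tally does not measure robustness, because part of it was fixed in advance. Median-of-ratios scaling multiplied every library by the same factor, and a higher fold or filter could not raise a count of 0. Values that changed in size or direction could also count as kept. Fcgr1 in T1 against RANKL alone went from -0.24 to -1.22 with a pseudocount of 0.1. Fcgr2b in T2 against RANKL alone went from 0.09 to -0.0064 with the FPKM of Fcgr3 added, where each Fcgr3 read weighs more for its shorter length. The count of members past the size rule became 1 in T1 against RANKL alone with a pseudocount of 0.1 (Cd36), and 1 in T2 against T1 with no filter on level (Fcgr1, on 2 reads in T1), against 0 in each as reported. The change of Cd36 with a pseudocount of 0.1 was -0.27 in T1. The direction of Msr1 in T1 turned from 0.02 to -0.000193 with libraries rescaled to the same total FPKM. The median of the members in T2 against RANKL alone was -0.03 as reported, 0.02 with no filter and 0.01 as a mean. Under the other scalings the ratio of Cd36 stayed beyond counting error in T1 and T2, with upper bounds in T2 of up to 0.993, and that of Fcgr2b in T1 did so with a lower bound just above 1. The median over all genes moved by at most 0.03 under those scalings. Leaving out copies and summing over copies gave no value, because no member had a copy within the limits. Leaving out a library was not possible with 1 per condition. No paired analysis was possible because each group compared has 1 library. Depth limits Fcgr1, Fcgr2b, Fcgr3, Mrc1, Axl, Mertk and Marco.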
